A study of Mus musculus with 4 samples.

Results

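The transcripts described here code for 40 proteins that hepatocytes release into blood plasma: carriers such as albumin, protease inhibitors, factors of clotting and clot removal, and apolipoproteins. They were taken by name from the gene table, where all 40 were found among 41128 gene identifiers, and each was followed as a share of its level in the cells before sorting. The rule picks genes by name alone, but the list of names was chosen with earlier results of these data known. All 40 had at least 10 counts in every library, so none was lost to a filter on low values.

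Every library came from livers of C57BL/6 mice with alcoholic hepatitis, induced by a high cholesterol fat diet (HCFD, 40% of calories, eaten freely), an alcohol liquid diet delivered into the stomach (60% of calories) and a weekly binge. No healthy or untreated liver was compared, so every group shares the disease model. After collagenase digestion most hepatocytes were spun out at low speed and CD45+ leukocytes were taken away with magnetic beads, which left the presorted CD45- cells. Sorting on Prom1 (prominin 1), CD49f (integrin alpha 6, encoded by Itga6) and CD45 (encoded by Ptprc) gave Prom1+CD49f+CD45- cells (below, the Prom1+ library), Prom1-CD49f+CD45- cells (the Prom1- library) and a population labelled Prom1+CD49f+CD45+. Each of the 4 populations had 1 library, made from the pooled RNA of 2 mice. Age and sex of the mice are not stated in the labels.

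With 1 library for each population, no spread between animals was measured and no test was possible. A ratio between libraries is given with an exact 95% interval that covers counting error only, and PCR copies counted as reads are not independent molecules. A difference counts as called, higher or lower, once its entire interval is past 2-fold. For the authors' normalized values, used below as an alternative, no interval was made, and a ratio past 2-fold counts as called. Levels are TMM-scaled CPM (counts divided by a library size that the trimmed-mean method adjusts, called scaled CPM here), and a share is the scaled CPM of a sorted library in percent of the presorted one. Summed counts ran from 14670414 in the Prom1- library to 52294143 in the presorted library.

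The sorted genes bear on how the libraries can be named. Prom1 was at 355 scaled CPM in the Prom1+ library, 31.1 in the Prom1- and 67.2 in the presorted library. The library labelled Prom1+CD49f+CD45+ had only 11.4 of it, the lowest level. Ptprc was at 14.6 in that library against 21.0 presorted, 6.34 in the Prom1+ and 3.61 in the Prom1- library. At Prom1 that library goes against its label. Its Ptprc was below the presorted level, against the label, but the highest of the sorted libraries. Itga6 was at 127 scaled CPM there against 110 presorted, 72.9 in the Prom1+ and 50.5 in the Prom1- library, the last 2 being below the presorted level although both were sorted as CD49f+. Its 15 endothelial markers summed to 20413 scaled CPM against 15057 in the presorted library, and its 15 cholangiocyte (bile duct cell) markers to 451 against 4185. The Prom1+ library was the reverse, with 25844 for cholangiocyte and 184 for endothelial markers, and the Prom1- library held both, at 9835 and 9295.

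Most plasma proteins are made by hepatocytes, the main epithelial cells of the liver, and their genes are read at high rates through factors that work together at promoters and enhancers, among them HNF1 alpha, HNF4 alpha, FOXA and C/EBP proteins. Albumin holds water in the circulation and carries fatty acids and bile pigments. Serpins and inter-alpha-trypsin inhibitors restrain proteases in plasma, fibrinogen forms the clot, and apolipoproteins build the particles that move lipids. Bile duct cells share an origin with hepatocytes and keep several of the same transcription factors, but are not known as a main source of plasma protein.

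Promoter sequences are shown for 5 members because these genes share position, family or abundance yet kept very different shares in the Prom1+ library. Each is the 150 bases just before the RefSeq start of the gene (GRCm38.p6, the mm10 build), read 5′ to 3′ on the gene's strand. Capitals mark the match to the motif of HNF1, a homeodomain factor that binds the albumin and alpha-1-antitrypsin promoters: in Alb and Gc the 13-base form GTTAATNATTAAC (the core, 1 free base and the core on the other strand) with up to 2 mismatches, in the Serpina1 copies its 6-base core GTTAAT. The Alb sequence is chr5:90460720-90460869 on the plus strand, and Gc, its neighbour in the albumin family, is chr5:89457899-89458048 on the minus strand. Hpx (hemopexin) is chr7:105600117-105600266, Serpina1a chr12:103863620-103863769 and Serpina1c chr12:103904951-103905100, all on the minus strand.
Alb: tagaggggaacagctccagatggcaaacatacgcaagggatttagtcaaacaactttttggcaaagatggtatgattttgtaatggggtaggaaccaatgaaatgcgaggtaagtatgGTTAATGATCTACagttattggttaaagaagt
Gc: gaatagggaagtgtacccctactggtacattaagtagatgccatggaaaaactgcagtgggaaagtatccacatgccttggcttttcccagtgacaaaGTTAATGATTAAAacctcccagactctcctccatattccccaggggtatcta
Hpx: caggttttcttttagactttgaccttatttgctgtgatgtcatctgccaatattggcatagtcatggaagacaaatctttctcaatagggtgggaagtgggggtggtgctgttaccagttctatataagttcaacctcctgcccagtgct
Serpina1a: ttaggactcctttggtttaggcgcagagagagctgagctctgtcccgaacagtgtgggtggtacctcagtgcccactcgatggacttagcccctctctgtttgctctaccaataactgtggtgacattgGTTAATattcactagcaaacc
Serpina1c: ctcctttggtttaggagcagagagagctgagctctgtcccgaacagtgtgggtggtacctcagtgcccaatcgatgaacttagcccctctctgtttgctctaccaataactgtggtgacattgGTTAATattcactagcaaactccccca

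RefSeq promoter windows matched 33 of the 40 members. Both strands of the 250 bases before the start were searched. The 13-base form was found in 4 of the 33 (Alb, Gc, Fga and Fgb) and in 1.45% of all 27025 genes with a window. The 6-base core, which overlaps it, was found in 12 of the 33 and in 7.49% of those genes. The 12 members with the core had Prom1+ shares from 1.77% to 69.9% (median 21.3%), and the 21 without it from 0.812% to 179% (median 6.81%), so the ranges overlapped almost wholly. All 5 Serpina1 copies held the core, so 5 of the 12 belong to the same gene family. A match is a description of letters and not a site.

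Most of the plasma protein genes were lower than in the presorted cells in each sorted library. Against the presorted cells, 34 of the 40 were called lower and 0 higher in the Prom1+ library, where 15.6% of the 21640 genes compared were called lower and 27.6% higher. In the Prom1- library 38 were called lower and 0 higher, against 14.1% and 9.77% of all genes. In the library labelled Prom1+CD49f+CD45+ all 40 were called lower and 0 higher, against 12.1% and 23.8% of all genes. The members' median share was 8.89% in the Prom1+ library, 15.8% in the Prom1- library and 2.34% in the labelled Prom1+CD49f+CD45+ library, while the medians over all genes compared were 109%, 89.6% and 104%. In bulk RNA, fewer cells of a type and less RNA per cell cannot be told apart.

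Shares in the Prom1+ library ran from 0.812% (Hpx) to 179% (Itih2), with an SD over members of 2.21 on the log2 scale, against 0.85 in the Prom1- library and 0.80 in the labelled Prom1+CD49f+CD45+ library. Over all genes compared the SDs were 2.39, 1.54 and 2.26 in the same order. Over 30 intracellular enzymes of hepatocytes they were 1.69, 0.80 and 0.70, and over 46 other secreted liver proteins 2.54, 1.15 and 1.55. Of the 40 members, 18 lay under 5% in the Prom1+ library and 15 over 20%. In the labelled Prom1+CD49f+CD45+ library 37 of 40 lay under 5%, and 1 member, Apoe, stood far above the others.

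**Figure D1:**
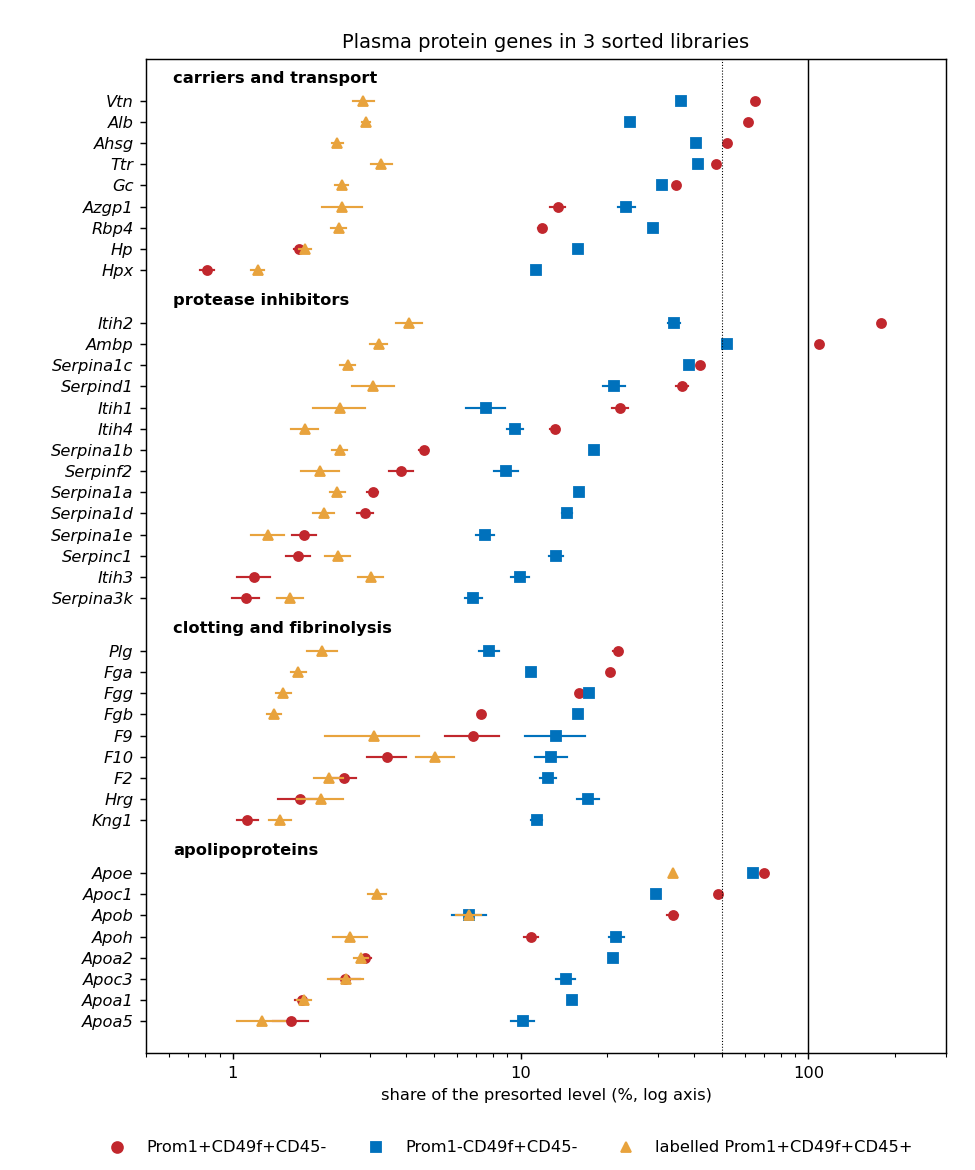
Share of the presorted level for each of the 40 genes in 3 sorted libraries (log axis, percent; points are single libraries, bars exact 95% counting intervals, the solid line marks 100% and the dotted line 50%), grouped by role. The Prom1+CD49f+CD45- points are scattered from 0.812% to 179%, the Prom1-CD49f+CD45- points run from 6.64% to 64.1%, and the labelled Prom1+CD49f+CD45+ points lie at 1.22% to 6.59% apart from Apoe at 33.7%.

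Summed over all 40 genes, plasma protein transcripts made up 5.70% of the presorted library's counts, 2.27% in the Prom1+ library, 1.79% in the Prom1- library and 0.516% in that labelled Prom1+CD49f+CD45+. Apoe, the most abundant member, carries much of this. Without it the sums were 4.79%, 1.43%, 1.13% and 0.129%. The 9 carriers alone were 2.08% of the presorted counts and 0.844% of those of the Prom1+ library, and the 9 clotting genes 1.06% and 0.167%. The lowest member in each library was F9 (coagulation factor IX), at 39.0 scaled CPM in the presorted, 2.66 in the Prom1+, 5.16 in the Prom1- and 1.21 in the labelled Prom1+CD49f+CD45+ library. Chemosensory receptor genes, which liver is not known to use, had 95th percentiles of 0.0450, 0.858, 0.353 and 1.10 in the same order. F9 lay nearest to that background in the labelled Prom1+CD49f+CD45+ library.

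Levels can be set between genes only per length, and on scaled CPM per kilobase of exon the order of the members changed. Apoe was the highest of the 40 in all 4 libraries, from 1681 in the labelled Prom1+CD49f+CD45+ library to 4987 in the presorted library. In the presorted library the next were Apoa2 at 3280, Hpx at 3077, Hp at 2777, Apoa1 at 2260 and Alb at 2250. In the Prom1+ library they were Alb at 1385, Ahsg at 941, Ambp at 795, Apoc1 at 626 and Serpina1c at 577. Hpx moved from rank 3 of 40 in the presorted library to rank 23, and Itih2 from rank 34 to rank 11. These levels hold for reads spread along transcripts, as in the kit the protocols name; Quant-seq, in the title of the series, reads 3′ ends, and which holds was not resolved.

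Among the 9 carriers, 5 kept 34.5% or more of their presorted level in the Prom1+ library and 2 kept under 2%. Against the presorted cells 6 of the 9 were called lower in the Prom1+ library (median share 34.5%) and all 9 in the Prom1- library (median 28.8%). Albumin (Alb, 5: 90460897-90476602) was at 5271 scaled CPM in the presorted library, 3243 in the Prom1+, 1266 in the Prom1- and 153 in the labelled Prom1+CD49f+CD45+ library. Its Prom1+ share was 61.5% (61.1 to 62.0) and its Prom1- share 24.0%. So albumin was higher in the Prom1+ library than in the Prom1- library, 2.56-fold (2.52 to 2.60), a difference called.

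Hemopexin (Hpx, 7: 105591613-105600137), which binds free heme, went the other way. It was at 4612 scaled CPM in the presorted library and stood at 37.5 in the Prom1+, 521 in the Prom1- and 56.2 in the labelled Prom1+CD49f+CD45+ library. Its share of 0.812% (0.768 to 0.858) in the Prom1+ library was the lowest of all 40, and it was 13.9-fold lower (13.1 to 14.8) there than in the Prom1- library. Haptoglobin (Hp), which binds free hemoglobin, followed the same course, with 4460 scaled CPM presorted, 75.8 in the Prom1+, 703 in the Prom1- and 79.5 in the labelled Prom1+CD49f+CD45+ library. Its Prom1+ share was 1.70% and its Prom1- share 15.8%. Both proteins are known to rise in the acute phase of inflammation.

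Vitronectin (Vtn), an adhesion protein of plasma and matrix, had the highest Prom1+ share among the carriers. It was at 796 scaled CPM presorted, 519 in the Prom1+, 288 in the Prom1- and 22.6 in the labelled Prom1+CD49f+CD45+ library, a Prom1+ share of 65.2% and a Prom1- share of 36.1%. Fetuin-A (Ahsg), an inhibitor of mineral deposition, was at 3981, 2068, 1617 and 91.9 in the same order, and its Prom1+ share of 51.9% was also not called. Albumin, vitronectin and fetuin-A were thus the 3 carriers not called lower in the Prom1+ library.

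Transthyretin (Ttr), a carrier of thyroxine and of retinol-binding protein, was at 724 scaled CPM presorted, 345 in the Prom1+, 299 in the Prom1- and 23.7 in the labelled Prom1+CD49f+CD45+ library. Vitamin D-binding protein (Gc) was at 2656, 918, 823 and 63.4. The Prom1+ and Prom1- shares were 47.6% and 41.3% for Ttr, and 34.5% and 31% for Gc, and neither gene was called between these libraries. With the length trend removed the Prom1- share of Ttr was 25.6%, and the ratio of the Prom1+ to the Prom1- library became 2.15-fold for Ttr, a call, and 1.77-fold for Gc. Against the presorted cells the Prom1+ call of Ttr was lost with library totals (63.5%), the authors' values (55.1%) and the length trend removed (58.8%). The authors' values also ended the Prom1- calls of Ttr (53.6%) and Ahsg (52.8%). Retinol-binding protein (Rbp4), the partner of transthyretin in plasma, was at 1776, 210, 511 and 41.4, with a Prom1+ share of 11.8% and a Prom1- share of 28.8%. The latter was 18.2% with the length trend removed, and the difference between these libraries, 2.44-fold lower in the Prom1+ library, then became 1.38-fold and lost its call. The fat-mobilising protein Azgp1 was at 267, 35.9, 62.2 and 6.41, with shares of 13.4% and 23.3%.

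Of the 14 protease inhibitors, 12 were called lower in the Prom1+ library (median share 4.21%) and 13 in the Prom1- library (median 13.9%). The exceptions in the Prom1+ library were Itih2 and Ambp, which lay above the presorted level. Itih2 encodes a heavy chain of inter-alpha-trypsin inhibitor, which is linked to the light chain bikunin and stabilises hyaluronan in matrix. It was at 362 scaled CPM presorted, 649 in the Prom1+, 124 in the Prom1- and 14.9 in the labelled Prom1+CD49f+CD45+ library. Its Prom1+ share of 179% (175 to 183) missed the 2-fold line, and it was called higher with library totals (239%), the authors' normalized values (207%) and the length trend removed (212%). Against the Prom1- library it was 5.25-fold higher (5.0 to 5.52), the largest such ratio of the 40.

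Ambp encodes the precursor of bikunin and of alpha-1-microglobulin, the latter a heme and radical scavenger. It was at 1026 scaled CPM presorted, 1120 in the Prom1+, 534 in the Prom1- and 33 in the labelled Prom1+CD49f+CD45+ library. Its Prom1+ share was 109% (108 to 111), and its Prom1- share of 52% was not called either. Ambp was 2.10-fold higher (2.05 to 2.15) in the Prom1+ than in the Prom1- library, a call lost with DESeq2 size factors (1.87-fold) and with the authors' values (1.87-fold). With the length trend removed its Prom1- share was 34.3%, which was called lower.

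The other heavy chains did not follow Itih2. Itih1 was at 160 scaled CPM presorted, 35.3 in the Prom1+, 12.1 in the Prom1- and 3.75 in the labelled Prom1+CD49f+CD45+ library, a Prom1+ share of 22.1%. Itih4, which lacks the link to bikunin, was at 755, 99.0, 72.3 and 13.4, a Prom1+ share of 13.1%. Itih3 was at 567, 6.72, 56.3 and 17.1, a Prom1+ share of only 1.18%. Itih1, Itih3 and Itih4 lie side by side (14: 30886476-30943289), so neighbours there ranged from 1.18% to 22.1%. Within the Prom1+ library the counts of Itih2 were 96.6 times those of Itih3 (84.8 to 110), against 0.639 times in the presorted library.

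**Figure D2:**
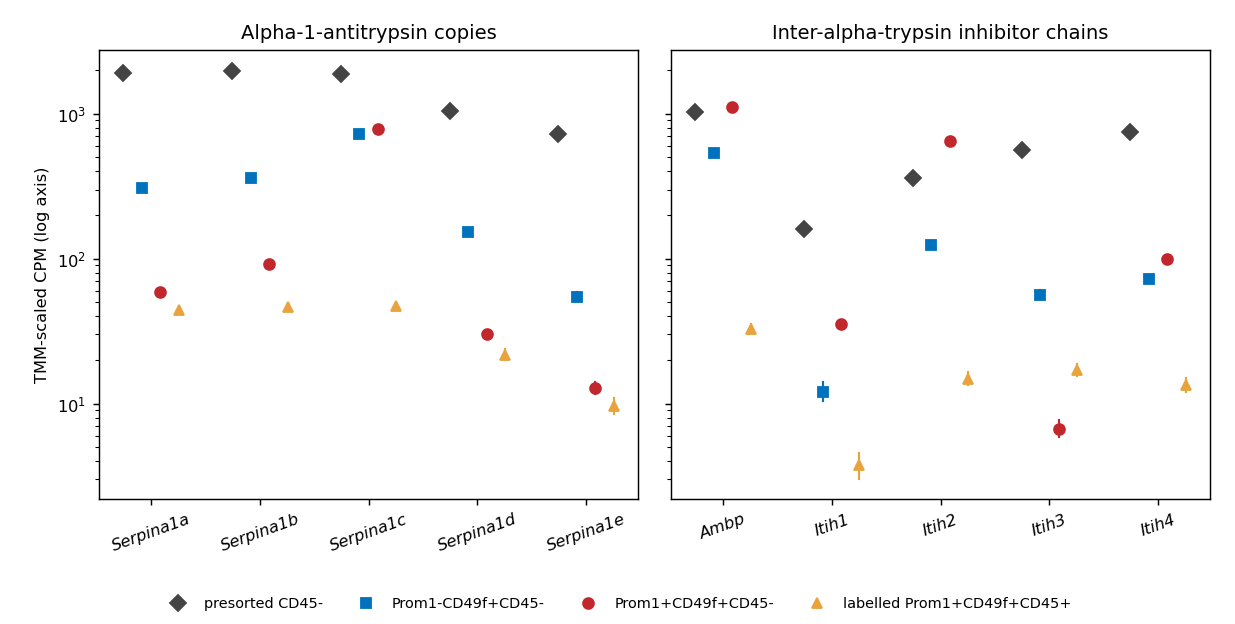
Scaled CPM (log axis) of the 5 alpha-1-antitrypsin copies (left) and of Ambp and the 4 Itih genes (right) in each of the 4 libraries; points are single libraries and bars exact 95% counting intervals. Serpina1c at 786 stands above the other copies, at 12.9 to 91.3, in the Prom1+CD49f+CD45- library although Serpina1a, Serpina1b and Serpina1c lie together at 1876 to 1983 in the presorted library, and Itih2 and Ambp are the genes whose Prom1+CD49f+CD45- point lies above the presorted one.

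The mouse has several copies of the alpha-1-antitrypsin gene, and 1 of the 5 measured copies differed from the others. Alpha-1-antitrypsin is known as an inhibitor of neutrophil elastase, and whether each mouse copy shares that action was not examined. In the presorted library Serpina1a was at 1919 scaled CPM, Serpina1b at 1983, Serpina1c at 1876, Serpina1d at 1052 and Serpina1e at 728. In the Prom1+ library they were at 58.8, 91.3, 786, 30.3 and 12.9. Serpina1c kept 41.9% (41.3 to 42.5) of its presorted level there, and the other copies 1.77% to 4.6%. Its call was lost with library totals (55.9%) and with the length trend removed (50.9%). In the Prom1- library the 5 were at 307, 358, 722, 152 and 54.6, and Serpina1c again had the highest share, 38.5% against 7.49% to 18.0%. In the labelled Prom1+CD49f+CD45+ library they were at 44.2, 46.6, 47.0, 21.8 and 9.63, and the shares lay together, from 1.32% to 2.5%.

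Counts of Serpina1c were 13.4 times those of Serpina1a in the Prom1+ library (12.8 to 14.0), 2.35 times in the Prom1- library, 1.06 times in the labelled Prom1+CD49f+CD45+ library and 0.978 times in the presorted library. By contrast the ratio of Serpina1a to Serpina1d stayed between 1.82 and 2.03 in all 4 libraries. That of Serpina1a to Serpina1b moved more, at 0.644 in the Prom1+ and 0.858 in the Prom1- library against 0.967 presorted. Reads of such copies can be shared out wrongly, since their coding sequences of 1242 bases are 96.3% to 98.5% identical, so each copy's value is uncertain. Serpina1c is closest to Serpina1a, with 19 mismatches, while the other pairs had 37 to 46. The copies differ at 86 coding positions. The 60 bases with most of them, coding bases 1102 to 1161 counted from the start codon, hold the reactive centre loop that proteases attack, and are shown because they are where the copies can best be told apart. Capitals mark the 18 positions at which the copies vary, from GENCODE vM21 transcripts.
Serpina1a: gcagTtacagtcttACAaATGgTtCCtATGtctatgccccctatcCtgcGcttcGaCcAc
Serpina1b: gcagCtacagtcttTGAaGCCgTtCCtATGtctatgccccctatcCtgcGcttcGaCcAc
Serpina1c: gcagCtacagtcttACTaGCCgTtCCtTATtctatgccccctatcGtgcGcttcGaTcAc
Serpina1d: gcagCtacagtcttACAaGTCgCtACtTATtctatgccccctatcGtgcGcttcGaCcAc
Serpina1e: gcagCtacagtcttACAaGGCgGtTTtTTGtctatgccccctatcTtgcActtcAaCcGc

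The promoters of Serpina1a and Serpina1c, printed above, were 91.0% identical when the 250 bases before each start were aligned and gaps counted as differences, with 11 mismatches outside the gaps. Serpina1c also shares 429 exon bases with the antisense gene B430119L08Rik, which had 283 counts in the presorted library, 100 in the Prom1+, 31 in the Prom1- and 1 in the labelled Prom1+CD49f+CD45+ library. Serpina1c itself had 83297, 26920, 10209 and 1165 counts in the same order, so that gene's counts were under those of Serpina1c in each library.

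Serpina3k, a relative of antichymotrypsin, had the lowest Prom1+ share of the inhibitors. It was at 912 scaled CPM presorted, 10.1 in the Prom1+, 62.4 in the Prom1- and 14.4 in the labelled Prom1+CD49f+CD45+ library, a Prom1+ share of 1.11%. It shares 60 exon bases with its neighbour Serpina3m. Antithrombin (Serpinc1) was at 708, 11.9, 94.2 and 16.4, a Prom1+ share of 1.69%. Heparin cofactor II (Serpind1), like antithrombin an inhibitor of thrombin, was at 193, 70.0, 40.7 and 5.93, a share of 36.3%, whose call was lost with library totals (48.4%). The inhibitor of plasmin, Serpinf2, was at 343, 13.2, 30.5 and 6.89, a share of 3.84%. The pair of thrombin inhibitors thus differed widely in the share kept.

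All 9 genes of clotting and clot removal were called lower in the Prom1+ library (median share 6.81%), in the Prom1- library (median 12.8%) and in the labelled Prom1+CD49f+CD45+ library (median 2.02%). The 3 fibrinogen chains, which assemble in equal numbers into 1 protein and lie next to each other on chromosome 3, kept different shares in the Prom1+ library. Fga was at 2805 scaled CPM presorted, 575 in the Prom1+, 304 in the Prom1- and 47.4 in the labelled Prom1+CD49f+CD45+ library. Fgb was at 3918, 285, 618 and 54.5, and Fgg at 2835, 451, 490 and 42.4. The Prom1+ shares were 20.5%, 7.28% and 15.9%, and the Prom1- shares 10.8%, 15.8% and 17.3%. Counts of Fga were 2.01 times those of Fgb in the Prom1+ library (1.97 to 2.06), 0.492 times in the Prom1- library and 0.716 times in the presorted library.

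Plasminogen (Plg), the precursor of the enzyme that dissolves clots, had the highest Prom1+ share of the clotting genes. It was at 564 scaled CPM presorted, 123 in the Prom1+, 43.8 in the Prom1- and 11.5 in the labelled Prom1+CD49f+CD45+ library, shares of 21.7%, 7.76% and 2.04%. Kininogen (Kng1), the source of bradykinin, had the lowest. It was at 1382, 15.5, 157 and 20.1, a Prom1+ share of 1.12% and a Prom1- share of 11.4%. Histidine-rich glycoprotein (Hrg), which lies in the same stretch of chromosome 16 as Kng1 and Ahsg, was at 235, 4.03, 40.4 and 4.76, a Prom1+ share of 1.71%. Its neighbour Ahsg kept 51.9%.

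Among the members, the vitamin K-dependent clotting factors stood low as well. Prothrombin (F2) was at 585 scaled CPM presorted, 14.3 in the Prom1+, 72.7 in the Prom1- and 12.6 in the labelled Prom1+CD49f+CD45+ library. Factor X (F10) was at 142, 4.85, 18.1 and 7.14. Their Prom1+ shares were 2.44% and 3.42%, and that of F9, on 91 counts, 6.81% (5.45 to 8.41). Vitamin K-dependent proteins in the list of other secreted liver proteins did not all stand low. Protein C (Proc) was at 200% of its presorted level in the Prom1+ library, not called, and was called higher there than in the Prom1- library. Protein S (Pros1) was at 22.7% and factor VII (F7) at 1.90%, both called lower.

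Among the 8 apolipoproteins, 7 were called lower in the Prom1+ library (median share 5.58%) and 7 in the Prom1- library (median 17.7%), with Apoe the exception in both. Apolipoprotein E (Apoe, 7: 19696109-19699188), a ligand for lipoprotein receptors that macrophages and other cells also make, was at 10663 scaled CPM presorted, 7449 in the Prom1+, 6838 in the Prom1- and 3595 in the labelled Prom1+CD49f+CD45+ library. Its shares were 69.9%, 64.1% and 33.7%, the highest of the 40 in the Prom1- and the labelled Prom1+CD49f+CD45+ libraries. Beside it, the 13 Kupffer cell and macrophage markers, none at 0 in any library, summed to 1135 scaled CPM presorted, 99.4 in the Prom1+, 160 in the Prom1- and 226 in the labelled Prom1+CD49f+CD45+ library, of which Csf1r alone was 79.2 in the Prom1+ library. Their part in the Apoe levels was not tested.

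Apoc1, next to Apoe on chromosome 7, was at 959 scaled CPM presorted, 466 in the Prom1+, 283 in the Prom1- and 30.4 in the labelled Prom1+CD49f+CD45+ library, shares of 48.5%, 29.5% and 3.17%. Its Prom1+ call was lost with library totals (64.7%), the authors' values (56.2%) and the length trend removed (59.3%). In the labelled Prom1+CD49f+CD45+ library its share lay among those of the other members, and not near that of its neighbour. Apoa1, the main protein of high-density lipoprotein, was at 2794, 48.4, 421 and 49.3, and Apoa2, of the same particle, at 1761, 50.6, 368 and 49.1. Their Prom1+ shares were 1.73% and 2.87%, and their Prom1- shares 15.1% and 20.9%. Apoc3, an inhibitor of triglyceride clearance, was at 345, 8.50, 49.5 and 8.51, and Apoa5, which promotes that clearance, at 362, 5.75, 36.8 and 4.56. Apoa1, Apoc3 and Apoa5 share a cluster on chromosome 9 (9: 46228580-46271919), and their Prom1+ shares lay together, at 1.73%, 2.46% and 1.59%, the last being the lowest of the apolipoproteins. Beta-2-glycoprotein I (Apoh), grouped here with the apolipoproteins, binds phospholipid surfaces. It was at 357, 38.8, 76.9 and 9.15, a Prom1+ share of 10.9%.

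Apob encodes the structural protein of very low-density lipoprotein and had the most exon bases of the 40 (13934). It was at 242 scaled CPM presorted, 81.5 in the Prom1+, 16.0 in the Prom1- and 15.9 in the labelled Prom1+CD49f+CD45+ library. Its Prom1+ share was 33.7%, and its Prom1- share of 6.64% was the lowest of all members in that library. It was 5.08-fold higher (4.44 to 5.84) in the Prom1+ than in the Prom1- library, and 3.18-fold with the length trend removed.

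Set directly against each other, the Prom1+ and Prom1- libraries split the plasma protein genes in both directions. Of the 40, 6 were called higher in the Prom1+ library and 20 lower, where 15.5% of all genes compared were called higher and 12.7% lower. With the trend of the ratios on exon length removed, 10 were called higher and 18 lower. Exon length here joins all annotated exons of a gene and can exceed the length of its transcripts. With DESeq2 size factors, where Ambp lost its call, 5 were called higher and 21 lower. The members' median ratio was 48.3%, against 136% over all genes compared. Other lists of liver genes split in a like way. Of 30 intracellular enzymes of hepatocytes 3 were called higher and 14 lower (median 45.2%), and of 46 other secreted liver proteins 7 and 23 (median 33.8%). The 46 were listed as secreted by the liver and not as genes of hepatocytes alone. The 6 members called higher were Itih2, Apob, Itih1 (2.92-fold), Plg (2.80-fold), Alb and Ambp. The length trend added Apoc1 at 3.19-fold, Vtn at 2.62-fold, Serpind1 at 2.39-fold and Ttr at 2.15-fold. Longer members had lower Prom1- shares: across the 40 genes, Spearman's rho between exon length and the Prom1- share was -0.48, and it was -0.02 for the Prom1+ share. All points of each come from the same pair of libraries.

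The 20 called lower in the Prom1+ library were led by Hpx. Next were Kng1 at 10.1-fold lower (9.19 to 11.1), Hrg at 10.0-fold, Hp at 9.28-fold, Apoa1 at 8.69-fold, Itih3 at 8.39-fold and Serpinc1 at 7.89-fold. They also held Apoa2 (7.28-fold), Apoa5 (6.39-fold), Serpina3k (6.18-fold), Apoc3 (5.82-fold), Serpina1a (5.22-fold), F2 (5.09-fold) and Serpina1d (5.03-fold). The rest, Serpina1e, Serpina1b, F10, Rbp4, Serpinf2 and Fgb, were 2.17-fold to 4.24-fold lower. Of these, Serpinf2 lost its call with library totals (1.97-fold) and with the length trend removed (1.75-fold), Fgb with library totals (1.84-fold) and Rbp4 with the length trend removed. The 14 not called included Gc at 1.11-fold, Serpina1c at 1.09-fold and Apoe at 1.09-fold higher, each of which turned to just below 1 with DESeq2 size factors.

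**Figure D3:**
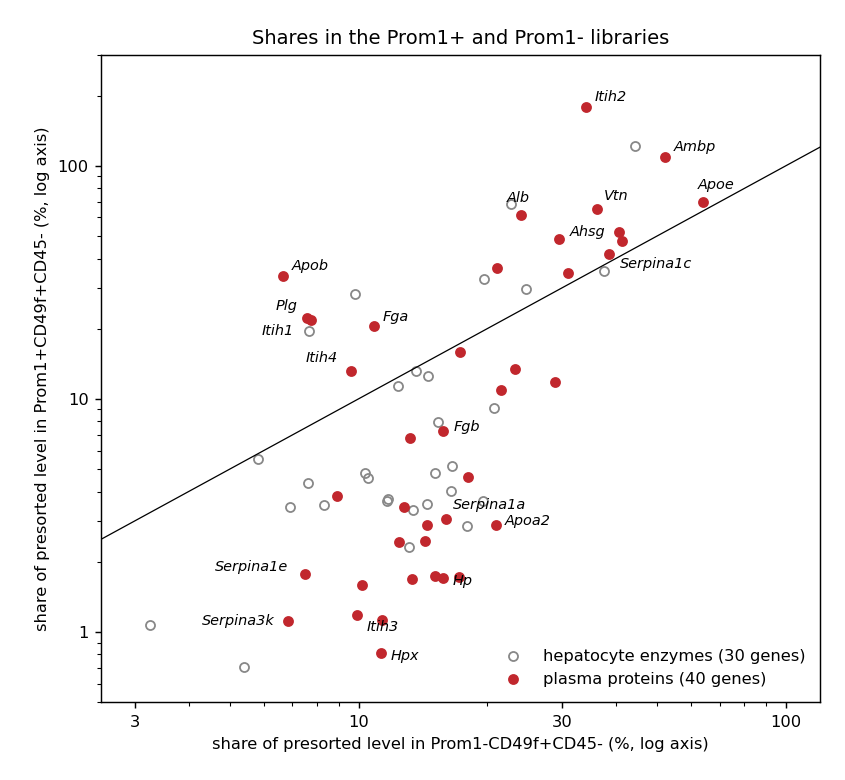
Share of the presorted level in the Prom1-CD49f+CD45- library (x) against that in the Prom1+CD49f+CD45- library (y), both in percent on log axes, for the 40 plasma protein genes (filled) and 30 hepatocyte enzymes (open); each point is 1 gene from single libraries, both axes share the presorted library, and the line marks equal shares. Itih2, Ambp, Alb and Apob lie above the line and Hpx, Hp and Itih3 far below it.

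Ratios between genes within a library do not depend on how libraries are scaled, and for 4 pairs, picked after their values were seen, they differed by over 10 times between libraries. Counts of Alb were 86.6 times those of Hpx in the Prom1+ library (81.9 to 91.6), 2.43 times in the Prom1-, 2.72 times in the labelled Prom1+CD49f+CD45+ and 1.14 times in the presorted library. Counts of Ahsg over Hp were 27.3, 2.30, 1.16 and 0.893, and of Ambp over Serpinc1 93.8, 5.67, 2.01 and 1.45. Apoc1 over Apoc3 gave 54.8, 5.71, 3.57 and 2.78. For these 4 pairs the Prom1+ library stood apart, and the other sorted libraries lay nearer to the presorted one. Such ratios are not free of the length trend. With it removed, the Prom1- share of Ambp went from 52% to 34.3% and that of Serpinc1 from 13.3% to 22.2%.

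**Figure D4:**
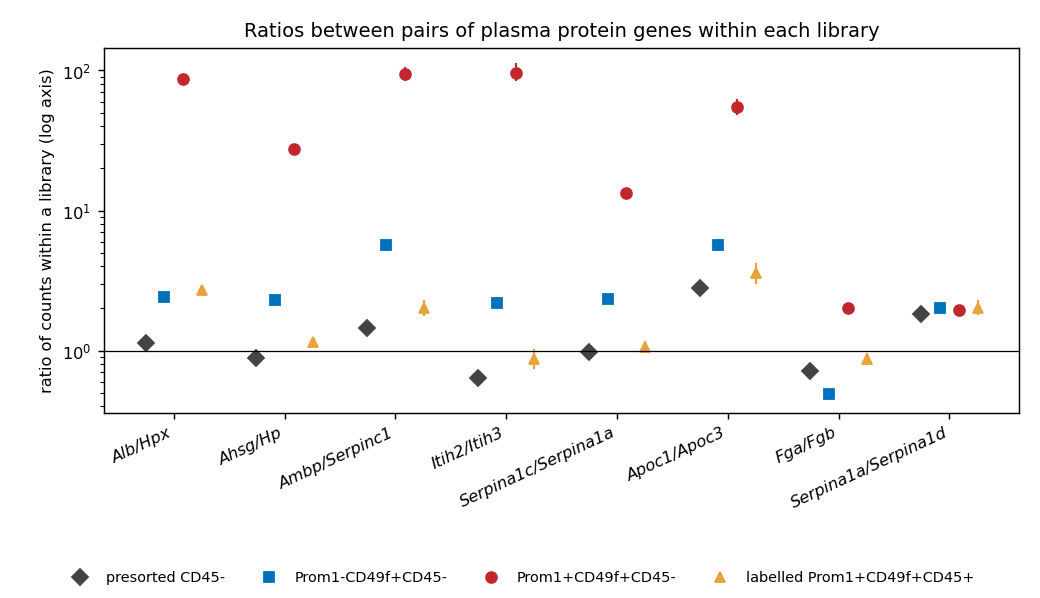
Ratio of counts between 8 pairs of plasma protein genes within each of the 4 libraries (log axis; points are single libraries, bars exact 95% counting intervals, the line marks equal counts). The Prom1+CD49f+CD45- points lie highest for the first 7 pairs, up to 96.6 for Itih2 over Itih3, while Serpina1a over Serpina1d stays at 1.82 to 2.03 in all 4 libraries.

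Against the library labelled Prom1+CD49f+CD45+, 21 of the 40 were called higher in the Prom1+ library and 1 lower, where 12.5% of all genes compared were called higher and 13.1% lower. The highest ratios were those of Itih2 at 43.6-fold (39.3 to 48.5), Ambp at 34.0-fold, Vtn at 23.0-fold, Ahsg at 22.5-fold and Alb at 21.2-fold. The other 16 called higher were Ttr, Gc, Rbp4, Azgp1, Serpina1c, Serpind1, Itih1, Itih4, Fga, Fgb, Fgg, Plg, Apoh, Apob, Apoc1 and Apoe, at 2.07-fold (Apoe) to 16.7-fold (Serpina1c). Apoe lost its call with the authors' values (1.78-fold). Itih3 was the 1 called lower, at 2.54-fold (2.16 to 2.99). Apoa1, Apoa2, Apoc3 and Hp each differed by at most 1.05-fold between these 2 libraries.

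Other hepatocyte genes also had low median shares. Of 30 intracellular enzymes of hepatocytes, 28 were called lower and 0 higher in the Prom1+ library (median share 4.82%), and all 30 were lower in the Prom1- (13.5%) and in the labelled Prom1+CD49f+CD45+ (2.70%) libraries. The drug-metabolising enzyme Cyp2c29 was at 1797 scaled CPM presorted, 51.1 in the Prom1+ and 322 in the Prom1- library, and the alcohol dehydrogenase Adh1 at 1120, 40.7 and 219.

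Of 46 other secreted liver proteins, 35 were called lower in the Prom1+ library and 2 higher (median share 5.28%). The 2 were clusterin (Clu), a secreted chaperone, at 6636 scaled CPM presorted and 29924 in the Prom1+ library, and ceruloplasmin (Cp), the copper-carrying ferroxidase, at 1981 and 5458. Transferrin (Trf), the iron carrier, was at 18484 and 6412 and kept 34.7%. Selenoprotein P (Selenop), the selenium carrier, kept 13.9% in the Prom1+ library but 109% in the labelled Prom1+CD49f+CD45+ library. The acute-phase genes Saa1 and Orm2, named after their values were seen, were at 0.631% and 0.696% of the presorted level in the Prom1+ library, below every plasma protein member. Acute-phase genes did not all stand low there: in the same list Cp was at 275.5%, C3 at 69.5% and Hamp at 18.9%, while Saa2 was at 0.586% and Orm1 at 1.02%.

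Of 17 transcription factors of liver genes, 6 were called higher in the Prom1+ library than presorted and 2 lower (median share 98.9%), where 27.6% and 15.6% of all genes were. Against the Prom1- library 12 were higher and 1 lower, where 15.5% and 12.7% of all genes were. The 6 included Prox1, a homeobox factor of liver development, at 62.0 scaled CPM presorted, 345 in the Prom1+ and 35.7 in the Prom1- library. Hnf4a, named after its values were seen, was at 100 presorted, 84.1 in the Prom1+, 12.7 in the Prom1- and 5.48 in the labelled Prom1+CD49f+CD45+ library. It was thus not called lower in the Prom1+ library, in which 34 of the 40 plasma protein genes were.

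The genes whose pattern over the 4 libraries was most like that of Alb, by Euclidean distance of centred log2 scaled CPM among 10726 genes outside the 40, included Cdhr5, Hgfac, Creb3l3 and Iyd, at distances of 0.17 to 0.27. Cdhr5 kept 64.2%, 26.0% and 2.57% of its presorted level in the Prom1+, Prom1- and labelled Prom1+CD49f+CD45+ libraries, where Alb kept 61.5%, 24.0% and 2.90%. Most like the median member were BC025446, Fbp1, Hsd17b13, Ly6d and Mbl1, at 0.26 to 0.36. The gluconeogenic enzyme Fbp1 kept 7.95%, 15.4% and 2.33%.

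Overlap with other genes leaves some members less certain, since how strand was handled in counting is not stated in the labels. Serpind1 lies within Pi4ka on the opposite strand with no shared exon base. Serpinc1 shares 2942 exon bases with Zbtb37 on the opposite strand, which had 131 counts presorted and 154 in the Prom1+ library, where Serpinc1 had 31440 and 409. Plg shares 420 bases with Slc22a3 (213 and 13 counts), and Apoh 30 bases with Prkca (417 and 909 counts, against 15868 and 1329 for Apoh).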

How the data were processed

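For 4 libraries the authors deposited estimated counts per gene (50.5% to 60.5% of values whole) beside normalized values. The submitters' processing notes name mm10, TopHat2 and Partek 3, without settings, annotation release or strand handling. The authors' deposited normalized values were CPM plus 1, on a divisor of which the gene counts summed to 67.1% to 88.4%. Per the labels' protocols, libraries were polyA-selected with a stranded kit. The column named only CD45 was taken as the presorted cells, the 1 population of the design text without a number of its own.

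Estimated counts were rounded and scaled by TMM (edgeR 4.0.16, R 4.3.3), keeping 21640 genes that reached 10 counts in any library. Identifiers were matched to GENCODE vM21 (40254 of 41128; the 874 others, at most 0.365% of counts, stayed in the library sums). Positions are mm10. Intervals are exact 95% ones, Poisson for a level and conditional binomial (Clopper-Pearson, scipy 1.17.1) for a ratio. The named members are, in each role, those with the highest and lowest Prom1+CD49f+CD45- share, all called higher in any comparison or not called lower, and the Serpina1 copies; of other lists, up to 4 genes of highest mean level, some of which are not reported here. For likeness of pattern, genes needed 1000 counts over the libraries, with a prior count of 1. The 40 genes, all lists and the comparisons were chosen with earlier results of these data known. Alternatives were library totals, DESeq2 1.42.0 size factors, the authors' values, a length correction, subtraction of the receptor background, count filters of 50 and none, and a 4-fold line. With the authors' values and the receptor subtraction, a call rests on the ratio alone, without an interval. Promoters are RefSeq's, for GRCm38.p6.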

Additional observations from a re-analysis of the deposited data

How the results depend on the processing

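With 1 library for each population no replicate could be left out. No paired analysis was possible because each group had 1 library. A count of members called can change in size between settings but has no direction to reverse. Against the presorted cells the count called higher in the Prom1+ library, 0, became 1 (Itih2) with library totals, with the authors' normalized values and with the length trend removed. Between the Prom1+ and Prom1- libraries the 6 called higher became 10 with the length trend removed, 8 with library totals, 5 with DESeq2 size factors or the authors' values, and 2 beyond 4-fold. Against the labelled Prom1+CD49f+CD45+ library the 1 called lower became 0 beyond 4-fold. Over all alternatives, 28 to 34 members were called lower than presorted in the Prom1+, 30 to 39 in the Prom1- and 39 to 40 in the labelled Prom1+CD49f+CD45+ library. Single shares moved by factors of 1.13 to 1.33 with library totals, 0.970 to 1.12 with DESeq2 size factors, 1.16 to 1.36 with the authors' values and 0.619 to 1.67 with the length trend removed. Over 1.5 times were moved, by the length trend only, 10 Prom1- shares, among them Ttr (41.3% to 25.6%), Ambp (52% to 34.3%), Serpina1c (38.5% to 24.8%) and Serpinc1 (13.3% to 22.2%). The authors' values moved the median log2 ratio of all genes by 0.43 in the labelled Prom1+CD49f+CD45+ library, 0.38 in the Prom1- and 0.21 in the Prom1+ library. Of all genes called between Prom1- and presorted, 40.9% were higher, and 51.5% with DESeq2 size factors and 52.5% with library totals. With the authors' values it was 65.6%, of 10804 genes called on the ratio alone, against 5169 called by interval in the main setting. Scaling and the missing interval cannot be told apart in that value. For Prom1+ against Prom1- the 54.8% became 66.9% with library totals. Depth limits F9 most, at 30 to 91 counts in the sorted libraries.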
